A study of Sus scrofa with 8 samples.

Results

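The vascular endothelial growth factor (VEGF) ligands, the platelet-derived growth factor (PDGF) ligands and the neuropilins were followed in the bulk RNA-Seq data of porcine pancreatic ductal organoids (PPDO), which are hollow epithelial cultures started from pancreatic ducts of the pig. The members were chosen by gene symbol, namely VEGFA, VEGFB, VEGFC, PDGFA, PDGFB, PDGFC, PDGFD, NRP1 and NRP2. Of these 9 symbols 8 had a row among the 30282 genes of the table, and VEGFB was not analysed here. The embryonic line Em, the late postnatal line LPN and the early postnatal lines EPN1 and EPN2 were each kept for a week in either complete or differentiation medium, and 1 library was made per line and medium (8 in all, n = 4 lines in each medium). Complete medium held prostaglandin E2, gastrin, EGF, FGF10, noggin, R-spondin and WNT3a, and these were left out of the differentiation medium. Both media shared the basal organoid medium with the N2 and B27 supplements, an inhibitor of TGF-beta receptors, a ROCK inhibitor, nicotinamide and N-acetylcysteine. The published methods state that a conditioned medium took the place of WNT3a, R-spondin and noggin when PPDO were maintained. The groups thus differ by the withdrawal of the whole set, possibly with other parts of that conditioned medium, and not by any single factor. The sample titles separate control from treated cultures, while another field of the records names an endocrine induction medium for all 8, and the media are given here by the titles and the published methods. Each line contributed 1 library per medium, so every comparison of media is over lines and no line has a replicate of its own.

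VEGF ligands are secreted proteins that bind receptor tyrosine kinases on endothelial cells, where VEGFA drives the sprouting of blood vessels and VEGFC the growth of lymphatic vessels. PDGF ligands are dimers that act on the receptors PDGFRA and PDGFRB of fibroblasts, stellate cells and pericytes. PDGFA and PDGFB are released in active form, whereas PDGFC and PDGFD carry a CUB domain that has to be cut off before they can bind. Neuropilins are co-receptors without kinase activity that hold VEGF ligands and class 3 semaphorins to their signalling receptors. Epithelial cells of the ducts are usually a source of the ligands rather than the cells that carry the receptors, and VEGFA is a textbook target of the hypoxia-inducible transcription factors.

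Library totals lay between 40553593 and 47910657 counts, so a count of 0 allows up to 3 counts or 0.0626 to 0.0740 CPM, which are counts divided by the library total so that libraries of different depth can be compared. This limit covers counting error only. Differences were tested with the quasi-likelihood test of edgeR with the medium as the only term, and p-values were adjusted by Benjamini-Hochberg over the 14475 genes that passed the expression filter. Of these, 1009 genes passed an adjusted p of 0.05, 416 with a higher and 593 with a lower level after the withdrawal. With the line added as a replicate block the number was 2884, and 991 of the 1009 genes were among them. Of 9 ductal markers tested, none passed the adjusted threshold (edgeR), with 1 at an unadjusted p under 0.05 and 1 passing with the line as block. Their summed level was 6644 to 9159 CPM in complete and 3832 to 14209 CPM in differentiation medium. The endothelial genes CDH5 and ERG were at or under the limit in all 8 libraries, while TEK reached 12.4 CPM in EPN1 in differentiation medium. The summed level of the 11 endothelial markers was 41.3 to 90.7 CPM in complete and 40.4 to 68.5 CPM in differentiation medium, most of it from FLT1, KDR and PECAM1. The 11 markers of fibroblasts and pericytes summed to 147 to 420 CPM and to 217 to 543 CPM, almost all of it THY1. COL3A1 was at most 0.0487 CPM in complete medium and reached 5.03 CPM in Em and 6.07 CPM in EPN1 in differentiation medium. COL1A2 went from at most 0.203 CPM to at most 1.75 CPM. Both failed the expression filter. By value both were higher in each of the 4 lines, but not beyond the limit of 3 counts in all of them. COL3A1 had 0 and 2 counts in EPN2, and COL1A2 had 0 and 1 counts in LPN, in complete and differentiation medium. COL1A1 was at 0.0452 to 0.563 CPM and 0 to 1.16 CPM, and PDGFRB was lower in each of the 4 lines. The 8 immune markers summed to 1180 to 1850 CPM and to 1048 to 1222 CPM, most of it CD79A. CD14 reached 52.3 CPM in Em in complete medium and 70.1 CPM in LPN in differentiation medium, and CD68 was at 3.24 to 49.8 CPM over the 8 libraries. LYZ was at 5.91 to 7.83 CPM in differentiation medium and at 0 to 9.02 CPM in complete medium. PTPRC reached 2.17 CPM in Em in complete medium and was at 0 in EPN2 in both media. CD3E and TYROBP were at or under the limit in all 8 libraries. The 5 acinar markers found summed to 0.152 to 1.78 CPM and to 0.188 to 0.317 CPM, and the 5 endocrine markers to 0.144 to 2.40 CPM and to 0.0701 to 21.3 CPM.

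In these organoids VEGFA, PDGFB and NRP2 fell in differentiation medium, by 3.11, 3.22 and 2.66 on the log2 scale. PDGFD had a higher level in every line after the withdrawal, a difference that missed the threshold in edgeR with the medium alone and passed it with the line as block and in DESeq2. PDGFA, PDGFC and VEGFC did not pass the test, and NRP1 was too low to be tested. Thus 3 of the 7 members tested passed the threshold, all of them lower, beside 6.97% of all genes in either direction, 4.1% lower and 2.87% higher. With the line as block 4 members passed, 3 lower and 1 higher, beside 19.9% of all genes, 10.4% lower and 9.48% higher. The median log2 fold change was -0.11 over the 7 members and 0.01 over all genes tested. The data are from whole cultures, in which fewer cells that express a gene and less of its RNA per cell cannot be told apart.

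**Figure D1:**
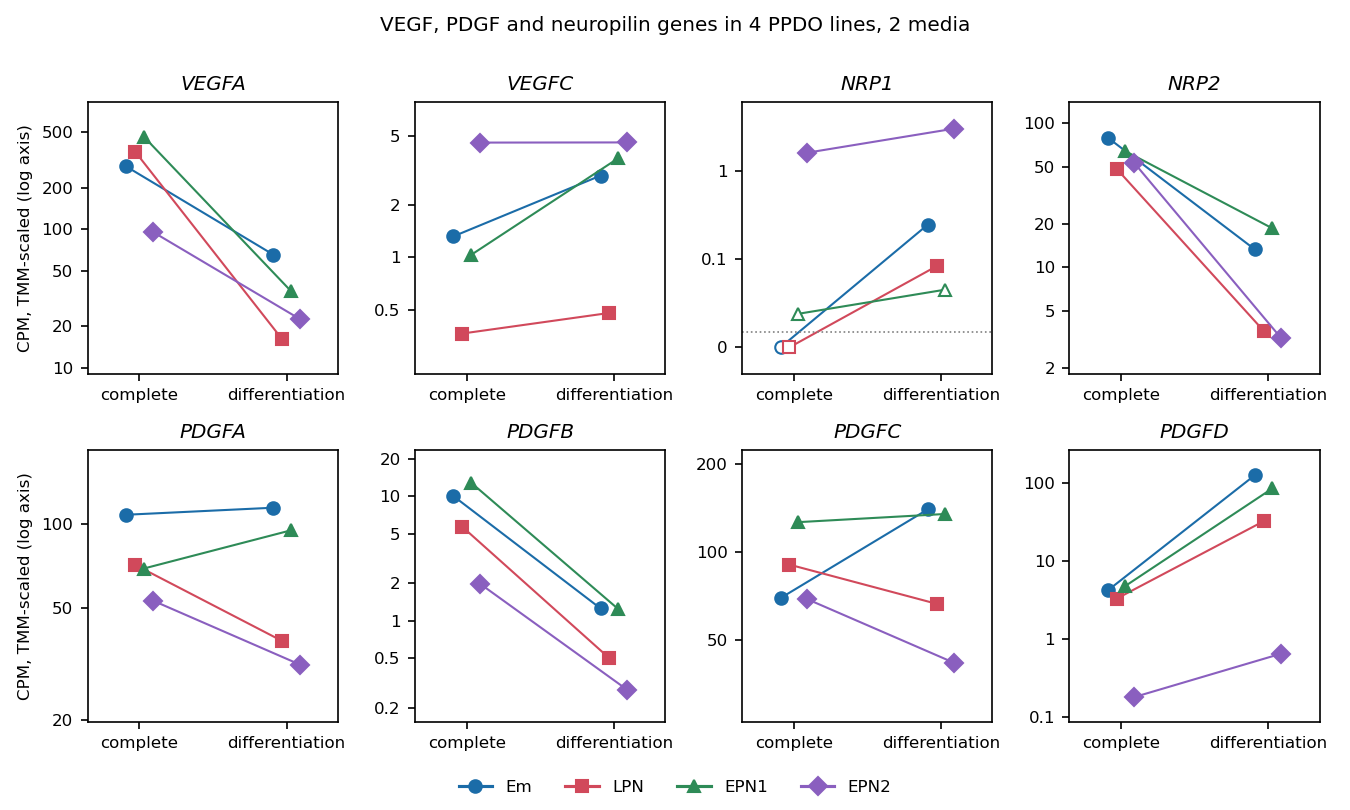
Level of 8 members in each library, as CPM scaled by the TMM factors on a log axis, in complete and differentiation medium, with 1 point per library and a line joining the libraries of each organoid line. Open symbols hold 3 counts or fewer, and libraries without a count are drawn below the dotted line. VEGFA, PDGFB and NRP2 go down and PDGFD goes up in all 4 lines, while the lines of PDGFA and PDGFC cross.

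VEGFA (ENSSSCG00000001695) lies on chromosome 7 of the Sscrofa11.1 assembly at chr7:38746393-38762282. In complete medium its level was 284 CPM in Em, 364 CPM in LPN, 466 CPM in EPN1 and 95.8 CPM in EPN2. In differentiation medium it was 65.5 CPM in Em, 16.1 CPM in LPN, 35.7 CPM in EPN1 and 22.5 CPM in EPN2. Every library in complete medium was above every library in differentiation medium, and EPN2 was the lowest line in complete medium. The mean went from 302 ± 156 CPM to 34.9 ± 22.0 CPM (SD, n = 4 lines), a log2 fold change of -3.11 (edgeR SE 0.60 and Benjamini-Hochberg adjusted p = 0.0283). The fit with the line as block gave -3.09 (SE 0.50, adjusted p = 0.0189). The size of the fall differed between lines, being 22.7-fold in LPN and 13.0-fold in EPN1 but 4.33-fold in Em and 4.26-fold in EPN2, with 1 library per medium in each. The extension row downstream of the gene held 28.8% of its counts, 25.0 to 32.1% in complete and 28.7 to 33.2% in differentiation medium, and without the extension rows the log2 fold change was -3.17. When 1 library at a time was left out, the log2 fold change of VEGFA stayed between -3.61 and -2.81. The adjusted p was 0.0185 without EPN2 in complete medium and 0.0338 without Em in differentiation medium, and it missed the threshold in the other 6 cases, at 0.0510 to 0.0909.

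VEGFC (ENSSSCG00000015770, chr15:39037764-39136234), the lymphatic ligand, was counted with 15 to 202 reads per library. In complete medium it had 1.32 CPM in Em, 0.366 CPM in LPN, 1.03 CPM in EPN1 and 4.57 CPM in EPN2. In differentiation medium it had 2.95 CPM in Em, 0.480 CPM in LPN, 3.71 CPM in EPN1 and 4.58 CPM in EPN2. The media overlapped, LPN was the lowest and EPN2 the highest line in both, and EPN2 hardly differed between the media. The log2 fold change was 0.68 (SE 0.86, adjusted p = 0.641, edgeR) with a 95% interval of -1.29 to 2.66. The blocked fit gave 0.86 (SE 0.38, 95% interval -0.10 to 1.82, adjusted p = 0.160, edgeR). Within the lines the log2 differences were 1.13 in Em, 0.36 in LPN, 1.80 in EPN1 and 0.00 in EPN2. The log2 ratio of VEGFA to VEGFC counts therefore changed by -3.25 in Em, -4.85 in LPN, -5.50 in EPN1 and -2.09 in EPN2, which is a lower share of VEGFA in all 4 lines.

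PDGFA (ENSSSCG00000007541, chr3:296399-322967) encodes the ligand best known for acting on PDGFRA. Its level in complete medium was 108 CPM in Em, 71.4 CPM in LPN, 69.3 CPM in EPN1 and 53.3 CPM in EPN2. In differentiation medium it was 114 CPM in Em, 38.3 CPM in LPN, 94.8 CPM in EPN1 and 31.6 CPM in EPN2. It was lower in LPN and EPN2 and slightly higher in Em and EPN1, and the media overlapped. The mean was 75.4 ± 23.0 CPM against 69.7 ± 41.0 CPM (SD, n = 4), and the log2 fold change of -0.11 (SE 0.44, 95% interval -1.12 to 0.89) had an adjusted p of 0.890 in edgeR.

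PDGFB (ENSSSCG00000033327), which binds both PDGF receptors and recruits pericytes to vessels, was lower by about the same factor in all 4 lines. In complete medium it was at 10.1 CPM in Em, 5.70 CPM in LPN, 12.9 CPM in EPN1 and 1.99 CPM in EPN2. In differentiation medium it was at 1.26 CPM in Em, 0.501 CPM in LPN, 1.24 CPM in EPN1 and 0.280 CPM in EPN2. The media did not overlap, although the lowest library in complete medium, EPN2, was close to the highest in differentiation medium, Em. The mean went from 7.66 ± 4.80 CPM to 0.821 ± 0.505 CPM (SD, n = 4), a log2 difference of -3.22 (SE 0.72, adjusted p = 0.0402, edgeR). In the blocked fit the estimate was -3.18 and its error was smaller (SE 0.24, adjusted p = 0.00811, edgeR), since the log2 differences of single lines lay between -3.40 and -2.65. The libraries in differentiation medium held 12 to 61 counts of PDGFB. Leaving out 1 library gave log2 fold changes of -3.53 to -2.83, and the adjusted p passed only without EPN2 in complete medium (0.0257) and was 0.0581 to 0.106 in the other 7 cases. The log2 ratio of PDGFB to PDGFA counts changed by -3.04 in Em, -2.50 in LPN, -3.78 in EPN1 and -1.89 in EPN2.

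PDGFC (ENSSSCG00000024960, chr8:45579065-45808789), a ligand with a CUB domain that acts mainly on PDGFRA, changed in opposite directions in different lines. In complete medium it was at 69.4 CPM in Em, 90.4 CPM in LPN, 126 CPM in EPN1 and 68.9 CPM in EPN2. After the withdrawal it was at 140 CPM in Em, 66.4 CPM in LPN, 135 CPM in EPN1 and 41.6 CPM in EPN2. The levels overlapped, with Em higher and LPN and EPN2 lower in differentiation medium. The mean was 88.8 ± 27.0 CPM against 95.6 ± 49.1 CPM (SD, n = 4), the log2 fold change was 0.11 (SE 0.40, 95% interval -0.82 to 1.03, adjusted p = 0.888, edgeR), and with the line as block it was -0.02 (adjusted p = 0.963). A change of direction between fits around a value so near 0 leaves the sign of PDGFC undetermined.

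PDGFD (ENSSSCG00000014994, chr9:34388636-34621227), the other ligand with a CUB domain and one that acts on PDGFRB, had the largest positive difference of the 7 members tested. In complete medium it was at 4.22 CPM in Em, 3.31 CPM in LPN, 4.83 CPM in EPN1 and 0.181 CPM in EPN2. In differentiation medium it was at 128 CPM in Em, 32.7 CPM in LPN, 86.6 CPM in EPN1 and 0.654 CPM in EPN2. Em, LPN and EPN1 were all above every library in complete medium, but EPN2, with 8 counts in complete and 28 in differentiation medium, stayed below the other lines in both. The EPN2 library in differentiation medium also had the lowest summed level of ductal markers, 3832 CPM. In complete medium this sum was 6703 CPM in EPN2 and 6644 CPM in EPN1. PDGFA, PDGFC and NRP2 were also lowest in the EPN2 library in differentiation medium. The part of the ductal markers in the low level of these genes and of PDGFD was not tested. For PDGFD the differentiation library exceeded the complete one by 30.2-fold in Em, 9.87-fold in LPN, 17.9-fold in EPN1 and 3.62-fold in EPN2. The highest line exceeded the lowest by 26.7-fold in complete and by 195-fold in differentiation medium. The mean was 3.14 ± 2.07 CPM against 61.9 ± 56.4 CPM (SD, n = 4), and the log2 fold change of 4.30 (SE 1.41) had an adjusted p of 0.101 in edgeR without a term for the line. In the blocked fit it was 3.87 (SE 0.48, adjusted p = 0.0127, edgeR). Leaving out 1 library gave 3.67 to 4.72, with an adjusted p of 0.0398 without EPN2 in differentiation medium. Without the line EPN2 it was 4.32 (adjusted p = 0.0201) and with block 4.14 (adjusted p = 0.00967), whereas without the line LPN or the line EPN1 the blocked fit no longer passed for PDGFD. The ratio of PDGFD to PDGFC counts rose by 3.89 in Em, 3.73 in LPN, 4.06 in EPN1 and 2.36 in EPN2 on the log2 scale.

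NRP1 (ENSSSCG00000011102, chr10:56280673-56430832), the neuropilin of blood vessels and a receptor of SEMA3A, was nearly absent outside of 1 line. Its counts in complete medium were 0 in Em, 0 in LPN, 1 in EPN1 and 72 in EPN2, and in differentiation medium they were 12 in Em, 4 in LPN, 2 in EPN1 and 131 in EPN2. In 4 of 8 libraries it thus did not exceed 3 counts, and it failed the expression filter and was not tested. The EPN2 libraries stood at 1.63 and 3.06 CPM, a ratio of 1.88 between the media, and the other lines reached at most 0.248 CPM. EPN2 is therefore the line with the most NRP1 in both media and the line with the least PDGFD in both media.

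NRP2 (ENSSSCG00000026383, chr15:108974246-109092316), the neuropilin of lymphatic and venous vessels and a receptor of VEGFC and SEMA3F, was lower in all 4 lines, as VEGFA was. The sizes differed by line: NRP2 fell 16.5-fold in EPN2 and 3.43-fold in EPN1, where VEGFA fell 4.26-fold and 13.0-fold. In complete medium it was at 79.5 CPM in Em, 48.4 CPM in LPN, 64.1 CPM in EPN1 and 53.1 CPM in EPN2. After the withdrawal it was at 13.3 CPM in Em, 3.63 CPM in LPN, 18.6 CPM in EPN1 and 3.22 CPM in EPN2. The media were well separated, the lines lay close together in complete medium, and LPN and EPN2 went lower than Em and EPN1. The mean went from 61.3 ± 13.8 CPM to 9.71 ± 7.57 CPM (SD, n = 4), a log2 difference of -2.66 (SE 0.59, adjusted p = 0.0402, edgeR). The blocked fit gave -3.02 (SE 0.43, adjusted p = 0.0157, edgeR). Leaving out 1 library gave -3.18 to -2.37, and the adjusted p passed only without EPN2 in differentiation medium (0.0489) and was 0.0504 to 0.103 in the other 7 cases. The EPN2 library in differentiation medium, where NRP2 was lowest, also had the lowest summed level of ductal markers, 3832 CPM. The part of this in the fall of NRP2 was not tested.

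Over the 7 members tested, all libraries in differentiation medium were below all libraries in complete medium for VEGFA, PDGFB and NRP2, beside 9.96% of all genes tested. These 3 were also lower in each of the 4 lines, beside 24.2% of all genes. PDGFD and VEGFC were higher in each of the 4 lines, beside 23.9% of all genes, with the difference of VEGFC in EPN2 at 0.00 on the log2 scale. With a whole line left out and no block, the number of genes called across the table was 1207 without EPN2, 149 without Em, 5 without LPN and 0 without EPN1, where 2220 genes had an unadjusted p under 0.05 and 8 passed with the line as block (edgeR in each case). No member passed without Em, LPN or EPN1, whereas without EPN2 VEGFA (adjusted p = 0.0307), PDGFB (0.0286) and PDGFD (0.0201) passed and NRP2 did not (0.0586, edgeR). In the blocked fit 4 members passed without Em or without EPN2, and 0 without LPN or without EPN1. The log2 fold changes of VEGFA, PDGFB and NRP2 in the fits without block stayed between -3.61 and -2.43 whichever line was left out.

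**Figure D2:**
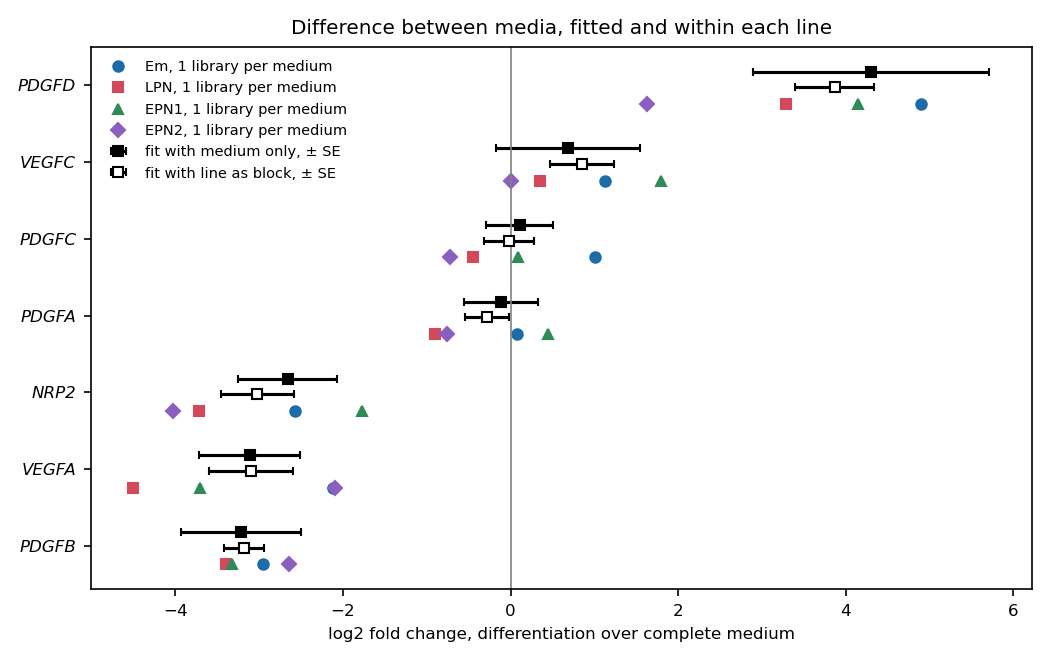
Log2 fold change of differentiation over complete medium for the 7 members tested. Filled squares are the edgeR fit with the medium only and open squares the fit with the line as block, both with SE bars, and the coloured symbols are single lines with 1 library per medium. PDGFB has the narrowest spread between lines, -3.40 to -2.65, and PDGFD and VEGFA have wide ones.

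The variance of log2 CPM over the 8 libraries was split into a part between media, a part between lines and the rest, as a description without a test. For VEGFA 78.3% lay between media and 13.0% between lines. For NRP2 77.8% lay between media and 15.3% between lines, and for PDGFB 72.7% and 26.6%. These 3 genes were thus ordered mainly by the medium. For PDGFD 33.3% lay between media and 62.6% between lines. For VEGFC, PDGFA, PDGFC and NRP1 the part between lines was 83.1%, 75.5%, 67.0% and 86.4%, and the part between media at most 9.85%. For NRP1, with few counts, these parts moved with the prior count, from 86.4% to 76.0% between lines and from 9.76% to 16.2% between media at a prior count of 0.5. The medians over all genes tested were 24.4% between media and 49.3% between lines.

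**Figure D3:**
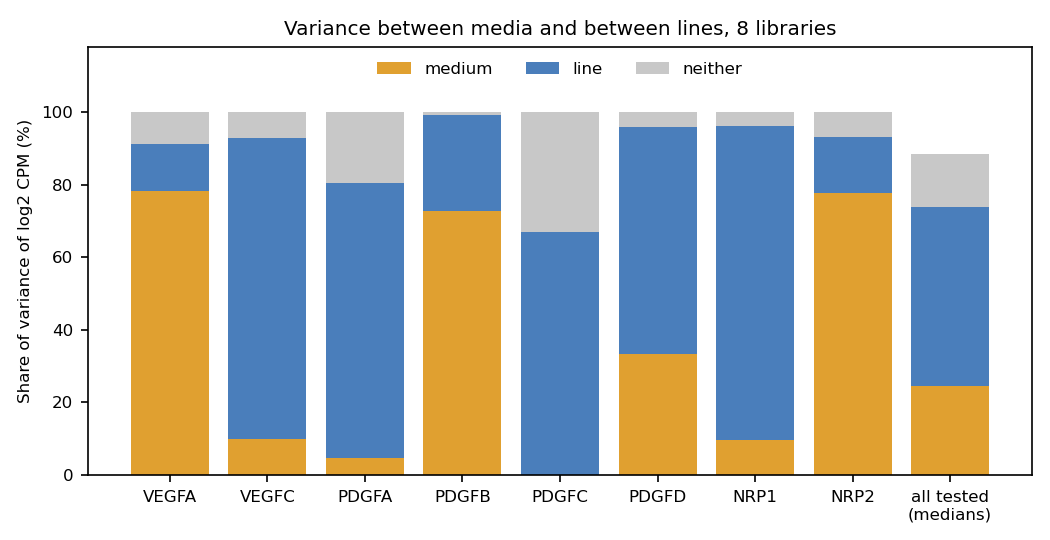
Share of the variance of log2 CPM over 8 libraries that lies between media, between lines or in neither, in percent, for 8 members and as medians over all genes tested, whose parts need not sum to 100. VEGFA, PDGFB and NRP2 have 72.7 to 78.3% between media, while the other members have 33.3% or less.

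Across the 8 libraries VEGFA and PDGFB had the highest correlation of any pair of members (Pearson r = 0.96 of log2 CPM), followed by NRP2 with PDGFB (0.93) and NRP2 with VEGFA (0.90). These libraries share the medium and the line, so the values describe a common order and are given without a p. PDGFA and PDGFC correlated at 0.76, NRP1 and VEGFC at 0.71 and PDGFC and PDGFD at 0.67. Among all genes tested those most like VEGFA were CHEK2 (r = 0.994), MFRP (0.992) and TBCA (0.989). Those most like PDGFC were COL22A1 (0.978), LRRK1 (0.977) and CFAP52 (0.967), and those most like NRP2 were METTL23 (0.988), SYNE4 (0.987) and RGL3 (0.983).

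The receptors of the ligands were examined next, in a list of 8 other VEGF and PDGF ligands and receptors of which 7 had a row and 5 were tested. None passed the threshold in edgeR, with 2 at an unadjusted p under 0.05, 1 passing with the line as block and 2 in DESeq2. Of all 14475 genes tested, 6.97% passed in edgeR and 19.9% with the line as block, and 3954 had an unadjusted p under 0.05. The median log2 fold change of the 5 genes was 0.56. PDGFRB, the receptor of PDGFB and PDGFD, was at 4.85 CPM in Em, 2.34 CPM in LPN, 3.32 CPM in EPN1 and 0.430 CPM in EPN2 in complete medium. In differentiation medium PDGFRB was at 0.825, 0.480, 0.204 and 0.0234 CPM in the same order. It was lower in every line, with a log2 difference of -2.82 (SE 1.00, adjusted p = 0.121, edgeR) and of -3.04 with the line as block (adjusted p = 0.0160), and the media overlapped because of EPN2. FLT4, the receptor of VEGFC, was at 0.0244 to 0.477 CPM in complete medium. In differentiation medium FLT4 was at 14.0 CPM in Em, 0.251 CPM in LPN, 0.951 CPM in EPN1 and 0.0934 CPM in EPN2. Its log2 fold change of 3.72 (SE 1.61, adjusted p = 0.181, edgeR) came with Em as the highest library, and EPN2 went the other way. FLT1 and KDR, the receptors of VEGFA, were at 14.5 to 64.0 CPM and 3.36 to 33.9 CPM over the 8 libraries, with adjusted p of 0.216 and 0.592 (edgeR). Of the other endothelial markers, PECAM1 was at 7.96 to 17.6 CPM and TIE1 at 1.61 to 6.78 CPM. VWF and ESAM were above the limit in every library, and CDH5 and ERG were at or under it in all 8. CLDN5 reached 0.195 CPM and EMCN 0.104 CPM. TEK was at 0.0240 to 0.108 CPM in complete and at 0.280 to 12.4 CPM in differentiation medium. TEK was higher in each of the 4 lines, most of all in EPN1 (log2 fold change 5.71, adjusted p = 0.0613, edgeR). PDGFRA did not pass the expression filter, at 0.0240 to 0.0975 CPM in complete and 0.140 to 0.605 CPM in differentiation medium. Its counts were 2 in Em, 4 in LPN, 1 in EPN1 and 4 in EPN2 in complete medium. In differentiation medium they were 14, 29, 25 and 6 in the same order, higher in each of the 4 lines.

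The partners of the neuropilins were read in a list of 12 class 3 semaphorins and plexins, all of them tested. None passed in edgeR, with 2 at an unadjusted p under 0.05, 2 with the line as block and 2 in DESeq2, and the median log2 fold change was -0.20. Of all 14475 genes tested in edgeR, 6.97% passed, 19.9% passed with the line as block, and 3954 had an unadjusted p under 0.05. DESeq2 called 3001 genes across the table. SEMA3C, a secreted ligand of both neuropilins, was at 376 CPM in Em, 302 CPM in LPN, 284 CPM in EPN1 and 211 CPM in EPN2 in complete medium. In differentiation medium SEMA3C was at 194, 41.7, 92.5 and 59.0 CPM in the same order. The media did not overlap for SEMA3C, with a log2 difference of -1.60 (SE 0.46, adjusted p = 0.0769, edgeR) and an adjusted p of 0.0219 with the line as block. PLXND1, a plexin that serves as a receptor of class 3 semaphorins, was lower in all 4 lines by -1.20 on the log2 scale (SE 0.38, adjusted p = 0.0915, edgeR, and 0.0322 with the line as block).

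Of 12 proteins that cut or mature the ligands, 10 were tested and 3 passed, 2 higher and 1 lower, with a median log2 fold change of 0.42. Beside them, 2.87% of all genes tested passed as higher and 4.1% as lower. MMP9, a matrix metalloproteinase that frees matrix-bound VEGFA, was at 0.910 CPM in Em, 2.34 CPM in LPN, 3.41 CPM in EPN1 and 8.50 CPM in EPN2 in complete medium and at 0.0226 to 0.0626 CPM in differentiation medium. All 4 differentiation libraries held 3 counts or fewer, which makes the size of the fitted value for MMP9 of -6.20 (adjusted p = 0.0121, edgeR) dependent on the prior count. MMP2, a related metalloproteinase, rose from a range of 0.802 to 3.10 CPM over the lines to one of 5.96 to 22.5 CPM, with a log2 difference of 3.08 (SE 0.60, adjusted p = 0.0294, edgeR). ST14, the membrane protease matriptase that can cut the CUB domain off PDGFD, rose by 0.62 (SE 0.14, adjusted p = 0.0400, edgeR), from 335 to 457 CPM to 546 to 639 CPM. With the line as block 6 genes of this list passed, beside 19.9% of all genes tested. The further ones, named after their values were seen, were PCSK7 and CCBE1, both higher, and PLAU, lower. PLAU, the urokinase that also activates PDGFD, was at 161 to 398 CPM in complete and 57.6 to 167 CPM in differentiation medium (log2 fold change -1.52, adjusted p = 0.0638, edgeR, and 0.0154 with the line as block). In the blocked fit PDGFD and ST14 were thus higher and PLAU lower. CCBE1, which helps ADAMTS3 to mature VEGFC, was at most 0.260 CPM in complete medium. ADAMTS3 itself failed the expression filter and held 3 counts or fewer in 7 of the 8 libraries. In differentiation medium CCBE1 was at 20.9 CPM in Em, 6.39 CPM in LPN and 25.5 CPM in EPN1, while EPN2 was at 0 in both media. EPN2 thus had the lowest CCBE1 and the lowest PDGFD in differentiation medium. When single libraries were left out, 0 to 4 genes of this list passed, with 0 without EPN1 in differentiation medium, 1 without any other library of Em, LPN or EPN1 and at least 3 without 1 of EPN2.

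The list of hypoxia sensing and response genes, 20 genes with 17 tested, had 11 genes past the threshold, 10 lower and 1 higher, and a median log2 fold change of -2.06. The shares over all genes tested were 4.1% lower and 2.87% higher. PGK1 and LDHA, enzymes of glycolysis, fell by 2.05 (SE 0.16, adjusted p = 0.00263) and 2.36 (SE 0.30, adjusted p = 0.0120) on the log2 scale (edgeR). EGLN3, the oxygen-dependent hydroxylase that is itself induced by low oxygen, fell by 3.22 (SE 0.31, adjusted p = 0.00568, edgeR), from 700 to 1250 CPM to 64.7 to 142 CPM. BNIP3, a mitophagy receptor, fell by 4.23 (SE 0.43, adjusted p = 0.00681, edgeR), PDK1, which holds pyruvate back from mitochondria, by 2.06 (SE 0.20, adjusted p = 0.00581, edgeR) and NDRG1 by 2.46 (SE 0.26, adjusted p = 0.00728, edgeR). The media did not overlap for these 6 genes, which follows largely from their choice by the smallest p in the list. Among all genes tested, 9.96% were lower without overlap. Some other genes of the list overlapped between the media, HIF1A among them. VHL, which marks hypoxia-inducible factors for breakdown, was the gene that rose, by 0.70 (SE 0.16, adjusted p = 0.0423, edgeR). For HIF1A itself the value was -0.84 (adjusted p = 0.0954, edgeR). When single libraries were left out, 5 to 14 genes of this list passed, with 7 without LPN and 5 without EPN1 in differentiation medium. Leaving out the line LPN or EPN1 left 0, in fits where few genes passed across the table. The level of oxygen was not part of the files, and the part of the hypoxia genes in the fall of VEGFA was not tested.

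Of 16 other angiogenic factors, 13 were tested and 3 passed, 1 higher and 2 lower, with a median log2 fold change of 0.13 and of -0.79 with the line as block. Among all genes tested 2.87% passed as higher and 4.1% as lower. ANGPTL4, a secreted inhibitor of lipoprotein lipase, fell by 2.51 (SE 0.33, adjusted p = 0.0121, edgeR), from 20.1 to 43.1 CPM to 3.62 to 7.57 CPM. APLN, the peptide apelin, fell by 2.83 (SE 0.56, adjusted p = 0.0302, edgeR), from 0.859 to 1.68 CPM to 0.0467 to 0.317 CPM. EFNB2, the membrane ligand of EPHB4, rose by 1.30 (SE 0.25, adjusted p = 0.0293, edgeR), from 67.5 to 136 CPM to 197 to 322 CPM. When single libraries were left out, 0 to 5 genes of this list passed, the lowest number without EPN1 in differentiation medium and the highest without the complete-medium library of EPN2. It was 1 without any other library of Em, LPN or EPN1 and 3 without EPN2 in differentiation medium. With the line as block 6 genes passed, beside 19.9% of all genes tested. The further ones were TIE1, ANGPT2 and CCN1, all lower and named after their values were seen.

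**Figure D4:**
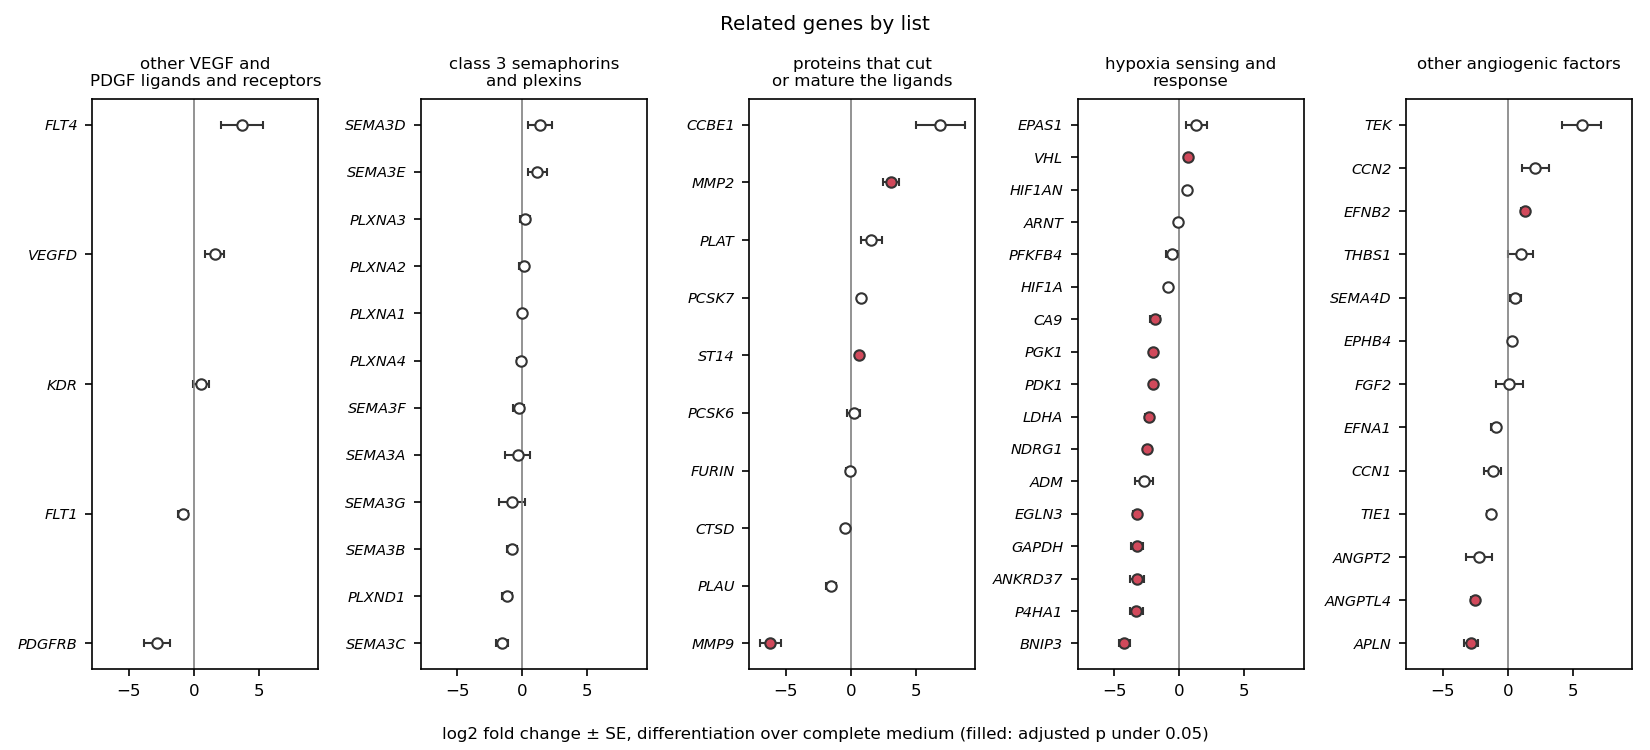
Log2 fold change of differentiation over complete medium with SE bars for the tested genes of 5 lists, from edgeR with the medium only. Filled symbols have an adjusted p under 0.05: 11 of 17 hypoxia genes, 3 of 10 genes whose products cut the ligands and 3 of 13 other angiogenic factors, and none in the lists of receptors and semaphorins. Over all genes tested the share was 6.97%.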

How the data were processed

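The authors selected poly(A) RNA, sequenced it in paired-end mode and ran an nf-core pipeline in which salmon quantified the reads on a pig genome with their own annotation. The table deposited by the authors holds estimated counts, 1 column per library. The submitters' processing notes name Sscrofa11.1, GRCh38 and Cell Ranger. Coordinates are those of RefSeq on Sscrofa11.1, found by symbol, with no entry for PDGFB. The methods name gene length scaled counts, and 78.6% of values above 0 are whole numbers (difference under 1e-06), so whether lengths were scaled is unknown and levels are not compared between genes. The 56060 rows were summed per gene over rows with the suffixes -iso and -ext (2.58% of counts in -ext) and rounded. Reporter transgenes (8 rows, 0.00142% of counts) were left out.

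Columns were matched to media by title and to lines by header. The replicate numbers of the records were not matched. Each line was cultured in both media, so the line is the block: after removal of the medium means, libraries of the same line correlated at 0.400 to 0.657 (4 pairs) and those of different lines at -0.479 to 0.242 (12 pairs). The main fit has no term for the line, since the published methods name none, and so leaves this pairing out. The fit with the line as block is the alternative that holds it.

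Counts were tested with edgeR 4.0.16 in R 4.3.3 (TMM factors 0.935 to 1.06, filterByExpr, quasi-likelihood test, Benjamini-Hochberg threshold 0.05), with DESeq2 1.42.0 as an alternative. CPM are TMM-scaled, and log2 CPM used a prior count of 2. On simulated counts of 14372 genes for the comparison of media, 99% of genes changed by 2 and 100% of those changed by 3 on the log2 scale were recovered, with 8 false calls. The simulation gave every gene the same dispersion, held no difference between lines and changed only genes above a minimum level. In the measured counts a median of 49.3% of the variance lay between lines, so these rates do not carry over to them. Besides the members, the text names, from each list, the genes past the threshold (at most 6, smallest p) or the 2 with the smallest p where none passed. Further genes are named where a statement turns on them: for the lists of receptors, cutting proteins, hypoxia and angiogenic genes FLT1, KDR, PDGFRA, PLAU, PCSK7, CCBE1, VHL, HIF1A, TIE1, TEK, ANGPT2 and CCN1 were added after their values were seen. ADAMTS3 and single cell type markers were also named after their values were seen. The members and the lists were chosen with earlier results of these data known. VEGFB, PGF, EGLN1, EGLN2, SLC2A1, KRT19, PRSS1 and AMY2 were not analysed here.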

Additional observations from a re-analysis of the deposited data

Results flagged for a closer look

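PDGFC moved in opposite directions in different lines. Its within-line log2 difference was 1.01 in Em and -0.73 in EPN2. This contrast between lines was not tested, since each line had 1 library per medium.

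NRP1 was far higher in EPN2 than in the other lines. In complete medium the EPN2 library stood at 1.63 CPM, and its distance to the next library took 0.985 of the whole range of the group. In differentiation medium the EPN2 library stood at 3.06 CPM and that share was 0.933. Both shares are above the critical value of Dixon's test for 4 samples. The test was run on 16 groups of 4 libraries, of which chance marks about 1 in 20.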

How the results depend on the processing

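With the line as replicate block 2884 genes passed, with DESeq2 3001, with DESeq2 and the replicate block 5609 and without an expression filter 506. In the same order of the first 3 settings PDGFD passed, at log2 fold changes of 3.87, 4.32 and 3.72, and the numbers of genes past the threshold became 1, 2 and 3 for the other VEGF and PDGF ligands and receptors, 2, 2 and 4 for semaphorins and plexins and 6, 7 and 8 for the proteins that cut the ligands. The other angiogenic factors had 6 with the replicate block and 8 with DESeq2 and the replicate block. PDGFC reversed to -0.023 with the replicate block and to -0.0015 with DESeq2 and the replicate block, and PDGFB missed the threshold without the expression filter (-3.22, adjusted p = 0.0512, edgeR). The cause of these differences was not tested. The direction of VEGFA, PDGFB, NRP2, PDGFD and VEGFC was the same under every alternative run, and the replicate block changed no other member's call.

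Leaving out 1 library, 1 line or 1 line in the blocked fit (the last added after the data were seen) gave 0 to 2989 genes past the threshold overall and 0 to 4 members. The log2 fold changes ranged from -3.61 to -2.63 for VEGFA, -3.53 to -2.83 for PDGFB, -3.44 to -2.37 for NRP2, 3.45 to 4.72 for PDGFD, 0.34 to 1.69 for VEGFC, -0.52 to 0.13 for PDGFA and -0.33 to 0.36 for PDGFC. PDGFA turned positive without Em in complete medium (0.13), LPN (0.09) or EPN2 (0.13) in differentiation medium, or the line LPN (0.06). PDGFC turned negative without Em (-0.13) or EPN1 (-0.10) in differentiation medium, the line Em (-0.21), and in the blocked fit the line Em (-0.33) or EPN1 (-0.06). The lists had, past the threshold, 0 to 4 other ligands and receptors, 0 to 3 semaphorins and plexins, 0 to 7 cutting proteins, 0 to 14 hypoxia genes and 0 to 6 other angiogenic factors. The hypoxia list fell to 0 without the line LPN or EPN1, with and without the block. The cause was not tested, and without the line EPN2 the number of genes past the threshold over the whole table was 1207, or 2989 with the block.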

Other observations

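Some genes of the lists separated LPN and EPN2 from Em and EPN1, which was noticed after their values were seen and was not tested. EPAS1, which encodes the hypoxia-inducible factor HIF-2 alpha, was at 160 CPM in LPN and 284 CPM in EPN2 in complete medium and at 623 CPM and 1059.9 CPM in differentiation medium. In Em it was at 120 CPM and 62.9 CPM and in EPN1 at 186 CPM and 138 CPM, so it was higher after the withdrawal in LPN and EPN2 and lower in Em and EPN1. PDGFA was lower in LPN and EPN2 and higher in Em and EPN1, and PDGFC was lower in LPN and EPN2 as well. The summed level of the ductal markers was split in the same way. It went from 9159 to 14209 CPM in Em and from 6644 to 9843 CPM in EPN1. It went from 7080 to 5506 CPM in LPN and from 6703 to 3832 CPM in EPN2. Not every ductal marker followed this, since CDH1 was higher in all 4 lines. Over all 4 lines the difference of EPAS1 between the media was 1.33 on the log2 scale (SE 0.80, adjusted p = 0.314 in edgeR).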
